A study of Homo sapiens with 30 samples.

Results

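The neutrophil and monocyte chemokines described here were 10 genes, CXCL1, CXCL2, CXCL3, CXCL5, CXCL6, CXCL8, CXCL12, CX3CL1, CCL2 and CCL5, taken by their symbols from the 61471 genes listed in each deposited table. They were followed in U87 (U87-MG) and U251 (U251-MG), human glioblastoma cell lines grown without other cells and labelled as wild type. Untreated cells received no IFN-γ. D3, D14 and D28 cells were kept in IFN-γ for 3, 14 and 28 days, and D28WO cells were kept in it for 14 days and then for 14 days without it. The labels give an IFN-γ concentration of 1 µg/mL and the study's methods a lower one, and the labels place the Untreated cells at day 3 whereas the methods place them at the start, so neither is settled here. No untreated cells were labelled day 14 or 28. At D14, D28 and D28WO, a difference from Untreated may thus come from IFN-γ or from longer culture, which cannot be told apart. Each group had 3 libraries, described as independent cultures, except D3 and D14 of U87, where 2 columns of the table shared a name and were left out, which left 2 libraries each. The identity of the cells is a limit, as other cells have often passed under both names and the cultures had no identity test on arrival, and each line stands for a single established culture rather than for tumours.

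Chemokines are small secreted proteins that guide leukocytes along a gradient through G protein-coupled receptors. CXCL1, CXCL2, CXCL3, CXCL5, CXCL6 and CXCL8 carry a Glu-Leu-Arg motif ahead of the CXC cysteines and draw neutrophils through CXCR1 and CXCR2, and their genes are classical targets of NF-κB and of IL-1 and TNF. CCL2 recruits monocytes through CCR2, CCL5 acts on CCR1 and CCR3 among others, CX3CL1 is made as a membrane-bound ligand of CX3CR1 on monocytes and microglia, and CXCL12 binds CXCR4 and the scavenger ACKR3. In glioblastoma CCL2 is best known for attracting myeloid cells. IFN-γ itself is the classical inducer of a different group, the CXCR3 ligands CXCL9, CXCL10 and CXCL11.

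The 6 neutrophil chemokine genes lie together on chromosome 4 within 359 kb (GRCh38, GENCODE 44, positions 73740519 to 74099196). Their promoters are shown because 5 of the 6 hold a match to the κB motif, the sequence that NF-κB binds, and CXCL8 a shorter string of it, at nearly the same place. Each line below is a stretch of 70 bases on the gene's own strand from the RefSeq GRCh38.p14 windows that run from 250 bases before to 50 bases after the start of the gene. Capitals mark the match to the κB motif, and in CXCL8 the 9 letters GGAATTTCC, looked for in that window after it was seen that the longer motif was not in it.
CXCL1 (chr4:73869279-73869348, + strand): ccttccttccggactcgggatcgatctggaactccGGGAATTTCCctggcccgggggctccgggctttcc
CXCL2 (chr4:74099239-74099308, - strand): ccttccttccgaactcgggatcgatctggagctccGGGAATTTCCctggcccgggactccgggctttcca
CXCL3 (chr4:74038734-74038803, - strand): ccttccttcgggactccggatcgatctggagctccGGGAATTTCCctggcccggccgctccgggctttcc
CXCL5 (chr4:73998734-73998803, - strand): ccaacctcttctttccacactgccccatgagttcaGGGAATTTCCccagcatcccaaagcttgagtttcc
CXCL6 (chr4:73836553-73836622, + strand): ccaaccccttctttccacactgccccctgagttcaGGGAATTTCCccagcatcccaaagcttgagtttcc
CXCL8 (chr4:73740442-73740511, + strand): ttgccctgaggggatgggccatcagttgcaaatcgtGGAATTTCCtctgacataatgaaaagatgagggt

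The stretches fell into sets that resemble each other. CXCL1 and CXCL3 were identical at 65 of the 70 bases and CXCL1 and CXCL2 at 59, and CXCL5 and CXCL6 were identical at 68. The match began 79 bases before the start in CXCL1 and CXCL3, 78 in CXCL2, 91 in CXCL5 and CXCL8 and 90 in CXCL6. The κB motif, searched on both strands, was in 5.91% of 35116 RefSeq promoter windows and GGAATTTCC in 0.461%, within windows of 300 bases. Interferon motifs were searched in the same way. TTCNNNGAA, the γ-activated site of IFN-γ-responsive genes, matched in CXCL5 and CXCL6, where it overlapped the κB match, and is in 7.66% of all windows. TTTCNNTTTC, a form of the interferon-stimulated response element, is in 3.57% of all windows and matched in none of the 7 members that have a window. CXCL12 on chromosome 10 (44370165 to 44386493) held none of these motifs in its window, and CX3CL1 on chromosome 16 (57372477 to 57385044), CCL2 on chromosome 17 (34255274 to 34257208) and CCL5 on chromosome 17 (35871491 to 35880793) were not in the promoter table. A match is a description of letters and not evidence of binding.

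Levels are given in TPM, a measure of transcript abundance corrected for gene length that sums to the same total in each library and keeps no sequencing depth, so no detection limit can be stated for a gene listed at 0. RNA was measured in bulk, so a change in the share of cells that express a gene and a change per cell cannot be told apart. The lowest correlation of a library with another of its group was 0.960 to 0.972 in U87 and 0.959 to 0.971 in U251, and 24223 to 30246 genes were above 0. Of 12 genes used to check exposure to IFN-γ, 11 were called higher in U87 at D3, 0 at D14 and 11 each at D28 and D28WO, and 12, 10, 12 and 12 in U251. In U87 the mean level of GBP1, an IFN-γ-induced GTPase, was 35.9 TPM in Untreated, 225 at D3, 34.2 at D14, 251.2 at D28, with 221 at D28WO. IDO1, which breaks down tryptophan, averaged 0.0795, 83.6, 0, 110.9 and 135.7 TPM in these groups, and GBP2, a relative of GBP1, 43.7, 185.1, 49.1, 197 and 189. In U251 IDO1 averaged 7.97, 346, 45.1, 401 and 302 TPM, CIITA, the activator of MHC class II genes, 1.88, 130.5, 7.48, 130.6 and 102, and SOCS1, an inhibitor of cytokine signalling, 2.82, 35.8, 9.18, 45.8 and 65.7. The U87 libraries labelled D14 thus sat with the Untreated ones in these genes, against what their label would give, and the D28WO libraries of both lines, labelled as 14 days without IFN-γ, sat with the treated ones. In U251 the D14 means of IDO1, CIITA and SOCS1 lay between those of Untreated and D3. Of the 12 check genes in U251, 5 were called lower at D14 than at D3 (3.29% of all genes). Between D14 and D28, 7 of them were called higher at D28 (4.23%). No cause was tested, D14 and D28WO are used below as names from the labels, and the fits were repeated without either group. The median log2 fold change of all genes against Untreated was 0.20, 0.15, 0.19 and 0.25 in U87 and 0.13, 0.10, 0.16 and 0.02 in U251 at D3, D14, D28 and D28WO. Values below are not shifted by these medians. Quantile normalization moved the share of called genes that were higher from 93.8% to 66.1%, 90.0% to 55.4%, 91.7% to 63.0% and 85.8% to 52.1% in U87, and from 68.1% to 49.3%, 82.0% to 62.1%, 78.0% to 52.3% and 54.6% to 51.0% in U251.

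In U87 the summed level of the chemokines was high at D3, lower at D14 and highest in the libraries labelled D28WO. CXCL2, CXCL3 and CXCL8 had their highest means at D28WO as well, while CXCL1 and CXCL5 had similar means at D3 and D28WO. Untreated U87 had a summed level over the 10 genes of 189.6 ± 10.5 TPM (mean ± SD, 3 libraries), D3 had 720 ± 131 (2 libraries), D14 had 365 ± 31.6 (2 libraries), D28 had 560 ± 7.72 and D28WO had 1087 ± 82.3 (3 libraries each). In U251 the summed level was 143 ± 4.62 TPM in Untreated, 236 ± 21.8 at D3, 494 ± 18.5 at D14, 598 ± 35.5 at D28, with 211 ± 6.37 at D28WO (n = 3 each). The highest sum was thus that of the libraries labelled D28WO in U87 and D28 in U251. The tables of the lines were normalised separately, so levels and changes were tested within a line only.

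**Figure D1:**
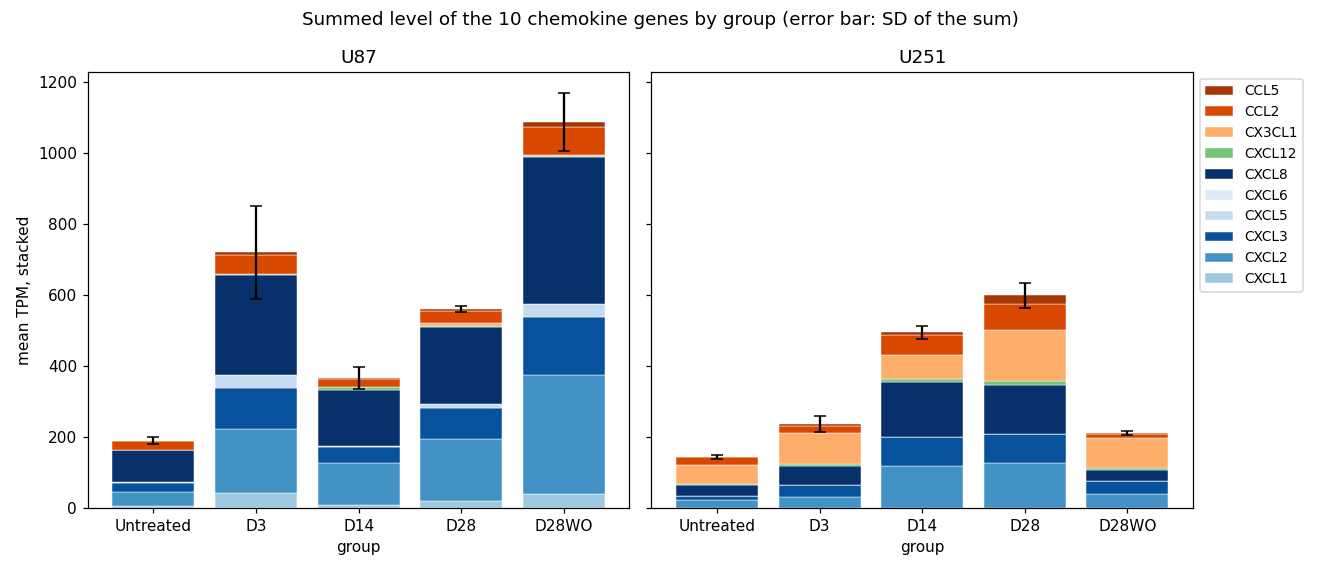
Stacked mean levels (TPM, linear axis from 0) of the 10 chemokine genes in each group of U87 (left) and U251 (right), with the SD of the summed level as the error bar (n = 3 libraries, n = 2 for U87 D3 and D14). U87 reached its highest sum of 1087 TPM at D28WO and U251 its highest of 598 TPM at D28, and the band of CX3CL1 is wide in U251 and thin in U87. The tables were normalised separately.

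Changes were called with limma over all genes tested where the Benjamini-Hochberg adjusted p was below 0.05 and the log2 fold change was beyond 1 in either direction. Of the 10 genes, 9 passed the filter on low values in U87 (all but CXCL6) and 7 in U251 (all but CXCL1, CXCL5 and CXCL6). Against Untreated, 7 members were called higher in U87 at D3, where 5.85% of all genes tested were called higher. The counts were 1 at D14 (1.89%), then 7 at D28 (6.77%), with 8 at D28WO (12.8%), and no member was called lower, where 0.384%, 0.209%, 0.611% and 2.12% of all genes were. In U251, 3 members were called higher at D3 (9.72%), 6 at D14 (4.72%), then 7 at D28 (11.9%), with 3 at D28WO (4.07%). None was called lower at D3, D14 or D28 (4.55%, 1.04% and 3.35% of all genes), and 1 was called lower at D28WO (3.38%). The median log2 fold change of the members tested was 2.10, 0.81, 1.88 and 2.74 in U87 and 0.74, 2.27, 2.29 and 0.77 in U251, beside the medians of all genes above.

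CXCL8, the ligand of both CXCR1 and CXCR2, was the most abundant of the 10 genes in every group of U87. Its levels were 80.3, 94.1 and 97.7 TPM in Untreated, 309 and 251.1 at D3, 167 and 150.4 at D14, 209, 227 and 217 at D28, with 405, 456 and 378 at D28WO. No library of a later group reached down to the Untreated libraries, and the D28WO libraries lay above all others. CXCL8 rose 3.09-fold at D3 (log2 fold change 1.61 ± 0.11 SE, limma, Benjamini-Hochberg adjusted p = 3.03e-06), 2.40-fold at D28 (adjusted p = 6.02e-06) and 4.55-fold at D28WO (adjusted p = 5.47e-08). At D14 the log2 fold change of 0.81 was under the limit for a call (adjusted p = 0.0056).

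CXCL2 and CXCL3, neutrophil attractants that act on CXCR2, were next in abundance in the treated groups of U87. CXCL2 stood at 32.5, 47.6 and 42.4 TPM in Untreated, at 207 and 151 at D3, at 130.0 and 112 at D14, at 184, 178 and 159.9 at D28, with 311, 372 and 317 at D28WO. It was the only member called at D14 (log2 fold change 1.55 ± 0.16, adjusted p = 0.00137), and it rose 4.37-fold at D3, 4.26-fold at D28 and 8.16-fold at D28WO (log2 fold change 3.01 ± 0.15, adjusted p = 8.76e-08, limma, Benjamini-Hochberg). CXCL3 stood at 31.3, 24.9 and 17.4 TPM in Untreated, 131 and 101 at D3, 49.4 and 40.0 at D14, 81.5, 86.8 and 98.6 at D28, with 155, 179 and 162 at D28WO. Its D14 libraries lay above Untreated but under every other group, with a log2 fold change of 0.87 (adjusted p = 0.0335), which rises to 1.06 and is called when Untreated replicate 1 is left out. CXCL3 rose 4.73-fold at D3, 3.63-fold at D28 and 6.75-fold at D28WO (adjusted p = 2.25e-05, 2.93e-05 and 6.34e-07, limma, Benjamini-Hochberg). In every treated group of U87 the order was CXCL8 over CXCL2 over CXCL3, and in none did the libraries of these neighbours overlap.

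CXCL1 and CXCL5 were scarce in Untreated U87 and had larger log2 fold changes there than CXCL2, CXCL3 and CXCL8 from Untreated to D3 and from D3 to D14. CXCL1, the first described of the GRO chemokines, measured 4.07, 5.59 and 3.67 TPM in Untreated, 48.9 and 36.2 at D3, 7.84 and 6.02 at D14, 18.1, 18.3 and 20.0 at D28, with 35.8, 39.3 and 43.4 at D28WO. CXCL5, which also acts on CXCR2, measured 2.68, 2.01 and 1.90 TPM in Untreated, 45.0 and 31.0 at D3, 1.96 and 1.85 at D14, 10.4, 13.1 and 9.04 at D28, with 37.6, 37.6 and 34.6 at D28WO. The D3 and D28WO libraries of both genes overlapped each other, and the D14 libraries of CXCL5 overlapped Untreated. CXCL1 rose 9.58-fold at D3 and 8.89-fold at D28WO (log2 fold change 3.00 ± 0.19 and 2.91 ± 0.17, adjusted p = 1.55e-06 and 3.01e-07, limma, Benjamini-Hochberg) and 4.23-fold at D28. CXCL5 rose 17.3-fold at D3 and 16.7-fold at D28WO (log2 fold change 3.59 ± 0.21 and 3.56 ± 0.19, adjusted p = 8.13e-07 and 1.44e-07) and 4.94-fold at D28. At D14 the log2 fold changes were 0.55 for CXCL1 (adjusted p = 0.117) and -0.13 for CXCL5 (adjusted p = 0.761).

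CXCL6 was listed at 0 in 12 of the 13 U87 libraries and in 13 of the 15 U251 libraries, with highest values of 0.159 TPM in U87 and 0.934 TPM in U251, both at D28WO. It was not tested in either line. Its paralog CXCL5, whose promoter stretch was identical to that of CXCL6 at 68 of 70 bases, reached 45.0 TPM in U87. CXCL1 and CXCL5 were likewise near 0 in U251. CXCL1 was listed at 0 in 10 of the 15 libraries and reached 0.690 TPM, and CXCL5 at 0 in 8 of them and reached 0.249 TPM. CXCL1, CXCL2 and CXCL3 are close paralogs, as are CXCL5 and CXCL6, and how the deposited values divide reads that fit more than 1 of them is not stated, so the split within each set is uncertain. In U251 the values of CXCL2 and CXCL3 were at 20.5 TPM or more and 10.98 TPM or more in every library, also where CXCL1 was listed at 0.

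**Figure D2:**
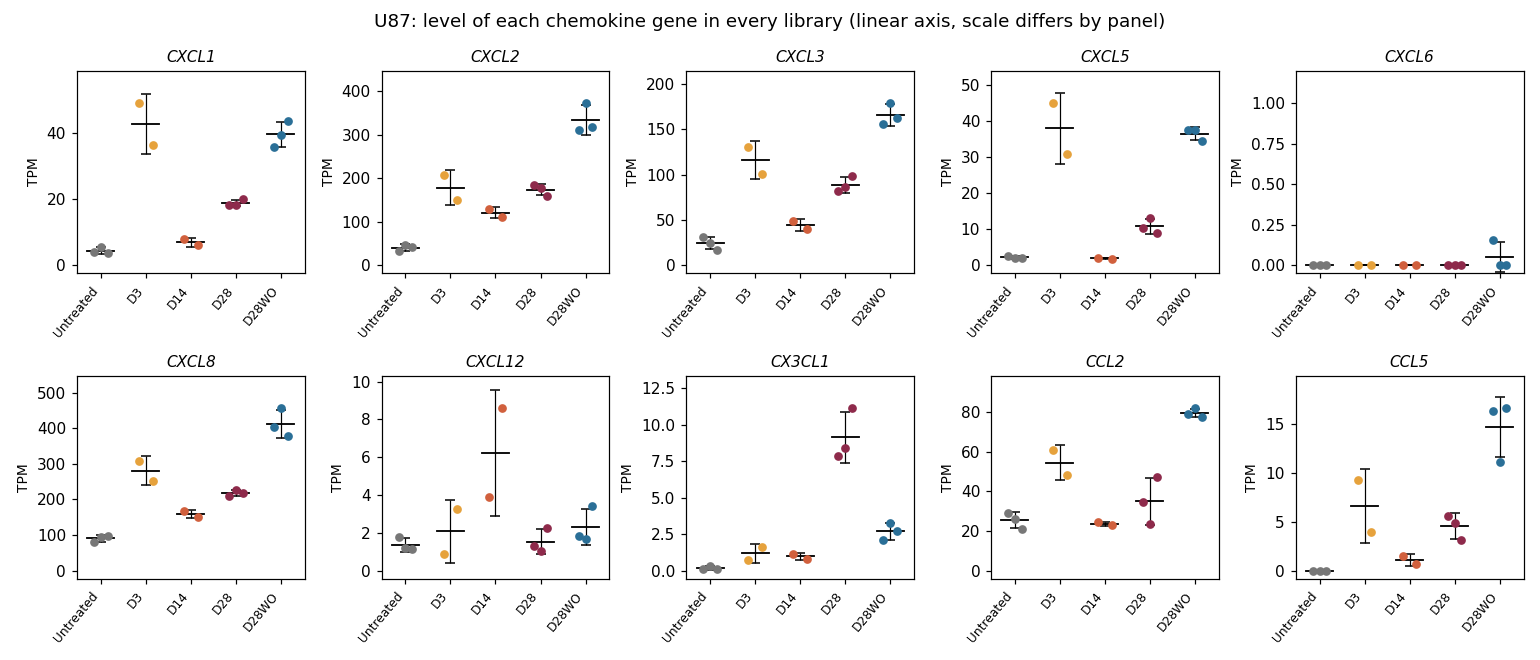
Level (TPM, linear axis, its scale differing by panel) of each chemokine gene in the U87 libraries, with 1 point per library, the mean as a line and the SD as an error bar (n = 3, n = 2 for D3 and D14). CXCL1, CXCL2, CXCL3, CXCL5, CXCL8, CCL2 and CCL5 are high at D3, lower at D14 and high at D28WO, whereas CX3CL1 is highest at D28 and CXCL12 at D14.

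In U251 the neutrophil chemokines measured were CXCL2, CXCL3 and CXCL8, and all were highest at D14 and D28. CXCL8 stood at 27.9, 34.0 and 32.9 TPM in Untreated, 45.9, 55.2 and 59.8 at D3, 143, 172 and 153 at D14, 128, 134 and 153 at D28, with 29.8, 32.0 and 28.2 at D28WO. The D28WO libraries lay within the range of Untreated and the D14 and D28 libraries overlapped. CXCL8 rose 4.94-fold at D14 and 4.39-fold at D28 (log2 fold change 2.27 ± 0.11 and 2.10 ± 0.11, adjusted p = 6.5e-09 and 4.2e-09, limma, Benjamini-Hochberg). At D3 its log2 fold change was 0.74 (adjusted p = 0.000104), under the limit for a call, and at D28WO it was -0.07, with a 95% interval of -0.30 to 0.17 (adjusted p = 0.712).

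CXCL2 stood in U251 at 20.5, 24.9 and 22.2 TPM in Untreated, 30.2, 29.8 and 34.9 at D3, 119.0, 123 and 108 at D14, 111, 128 and 135 at D28, with 39.1, 41.2 and 37.1 at D28WO. CXCL3 stood at 11.2, 11.8 and 10.98 TPM in Untreated, 30.9, 31.5 and 31.9 at D3, 84.2, 83.8 and 79.0 at D14, 78.7, 75.3 and 93.2 at D28, with 31.9, 38.7 and 41.0 at D28WO. At D28WO the libraries of both genes lay above those of Untreated and under those of D14 and D28, unlike CXCL8. CXCL2 rose 5.16-fold at D14 and 5.53-fold at D28 (adjusted p = 1.41e-09 and 2.4e-10, limma, Benjamini-Hochberg) and had log2 fold changes of 0.47 at D3 and 0.77 at D28WO, both under the limit for a call. CXCL3 was called at all 4 points, with a rise of 2.78-fold at D3, 7.27-fold at D14, 7.28-fold at D28, then 3.29-fold at D28WO (adjusted p = 8.31e-08, 3.1e-10, 6.97e-11 and 2.65e-08).

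**Figure D3:**
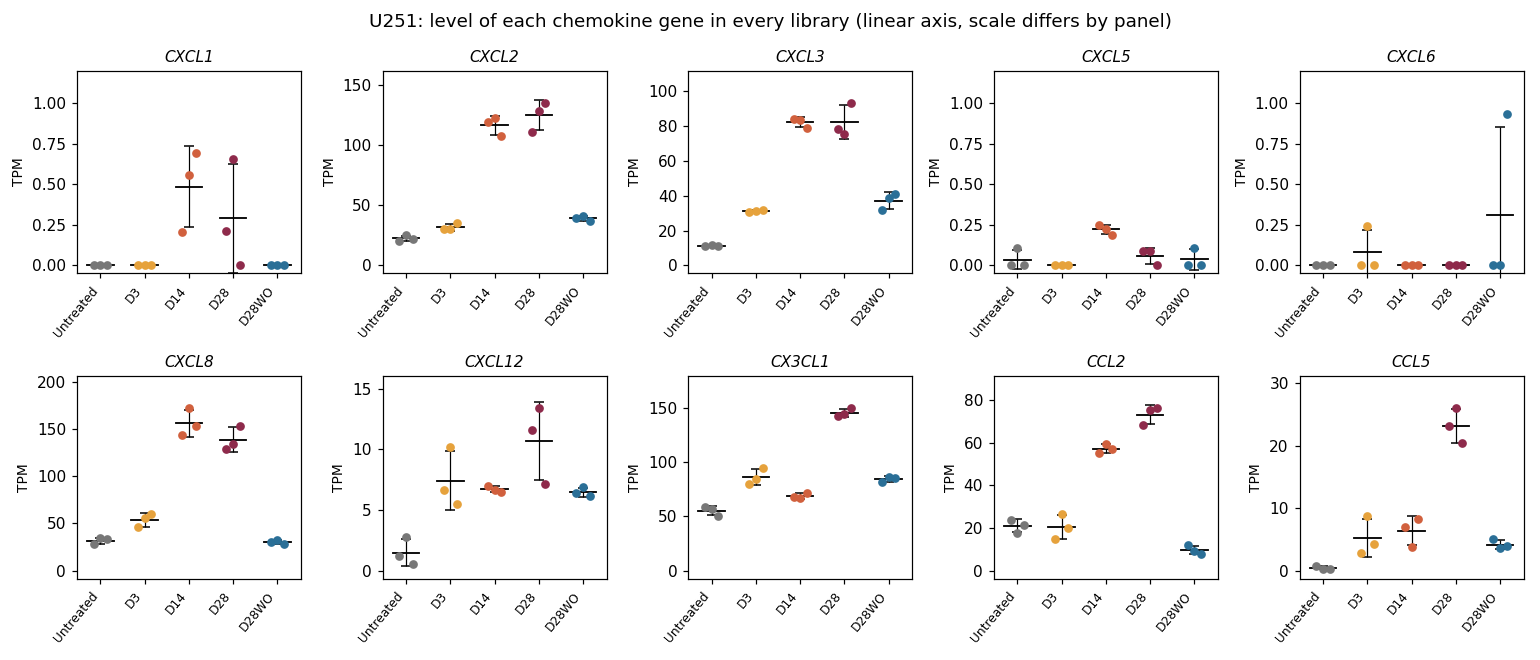
Level (TPM, linear axis, its scale differing by panel) of each chemokine gene in the U251 libraries, with 1 point per library, the mean as a line and the SD as an error bar (n = 3). CXCL2, CXCL3, CXCL8 and CCL2 are highest at D14 and D28, CX3CL1 and CCL5 at D28, and CXCL1, CXCL5 and CXCL6 stay under 1 TPM.

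CCL2, the ligand of CCR2 that recruits monocytes, stood in U87 at 29.2, 25.9 and 21.1 TPM in Untreated, 60.9 and 48.3 at D3, 24.3 and 22.97 at D14, 34.5, 23.3 and 47.0 at D28, with 79.0, 81.9 and 77.6 at D28WO. In U251 it stood at 23.7, 17.7 and 21.4 TPM in Untreated, 14.7, 26.4 and 20.0 at D3, 54.9, 59.3 and 57.1 at D14, 68.0, 75.2 and 76.0 at D28, with 11.9, 9.17 and 7.97 at D28WO. At D28WO the U87 libraries were the highest of their line and the U251 libraries the lowest of theirs. In U87 CCL2 rose 3.13-fold at D28WO (log2 fold change 1.62 ± 0.20, adjusted p = 8.23e-05, limma, Benjamini-Hochberg) and 2.15-fold at D3 (log2 fold change 1.08 ± 0.23, adjusted p = 0.0093). The D3 call was not made without D3 replicate 2 (log2 fold change 0.91, adjusted p = 0.105), without Untreated replicate 3 (0.95), or with size factors (0.89) or quantile normalization (0.83). At D28 the U87 libraries overlapped Untreated (log2 fold change 0.40, adjusted p = 0.18), with 0.17 when D28 replicate 3 was left out and 0.66 when D28 replicate 2 was. In U251 CCL2 rose 2.72-fold at D14 and 3.49-fold at D28 (adjusted p = 9.14e-05 and 3.13e-06), and at D3 its libraries overlapped Untreated. It was the only member called lower against Untreated, where it fell by 1.05 on the log2 scale at D28WO (SE 0.18, adjusted p = 0.000553), and it was under the limit on the fold without Untreated replicate 1 (-0.96), without D28WO replicate 3 (-0.93) or with array weights (-0.9998).

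CCL5, which draws T cells and monocytes through receptors that include CCR1 and CCR3, was listed at 0 in all 3 Untreated libraries of U87. It measured 9.23 and 3.94 TPM at D3, 1.53 and 0.674 at D14, 5.61, 4.90 and 3.10 at D28, with 16.3, 11.1 and 16.5 at D28WO. No fold change is given against a group at 0, and the calls were made at D3, D28 and D28WO (adjusted p = 0.000338, 0.000307 and 3.19e-06, limma, Benjamini-Hochberg) and not at D14 (adjusted p = 0.109). With a pseudocount of 0.1 TPM in place of 1 TPM, D14 was called too (adjusted p = 0.00498). In U251 CCL5 measured 0.786, 0.272 and 0.320 TPM in Untreated, 2.88, 8.70 and 4.18 at D3, 7.01, 3.81 and 8.34 at D14, 23.1, 26.0 and 20.4 at D28, with 5.02, 3.63 and 3.86 at D28WO. It rose at all 4 points, with log2 fold changes of 2.01 ± 0.32, 2.30 ± 0.32, 4.06 ± 0.32 and 1.83 ± 0.32 (adjusted p = 0.000196, 0.000194, 2.58e-07 and 0.000657), values that are 3.22, 3.58, 5.48 and 3.03 with a pseudocount of 0.1 TPM. The D28 libraries stood apart from all others, and D3, D14 and D28WO overlapped.

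CX3CL1, the membrane-bound ligand of CX3CR1, separated the lines most clearly by its place in the order of levels. In U251 it measured 58.3, 56.5 and 50.5 TPM in Untreated, 79.6, 83.9 and 94.4 at D3, 67.7, 67.1 and 71.8 at D14, 142, 144 and 149 at D28, with 81.5, 86.5 and 85.0 at D28WO. No treated library reached down to Untreated, and only D28 was called (2.64-fold, log2 fold change 1.39 ± 0.07, adjusted p = 3.4e-09, limma, Benjamini-Hochberg), while its values of 0.63, 0.32 and 0.61 for D3, D14 and D28WO passed the adjusted p (8.38e-06, 0.00576 and 1.97e-05) but not the limit on the fold. In U87 it measured 0.0913, 0.305 and 0.0937 TPM in Untreated, 0.707 and 1.63 at D3, 1.12 and 0.806 at D14, 7.89, 8.37 and 11.1 at D28, with 2.13, 3.25 and 2.68 at D28WO. It rose at D28 (log2 fold change 3.11 ± 0.26, adjusted p = 7.56e-06) and at D28WO (1.66 ± 0.26, adjusted p = 0.000346), changes that are 5.21 and 3.48 with a pseudocount of 0.1 TPM. At D3 and D14 its log2 fold changes of 0.87 and 0.76 were not called (adjusted p = 0.0582 and 0.146, limma, Benjamini-Hochberg), and with that pseudocount they were 2.26 and 2.09 and were called (adjusted p = 0.0134 and 0.041). Among the 9 members tested in U87 it was the only one highest at D28 and called lower at D28WO than at D28.

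CXCL12, the CXCR4 ligand of stem cell niches and vessels, was low in both lines. In U251 it measured 1.19, 2.76 and 0.520 TPM in Untreated, 6.60, 10.2 and 5.52 at D3, 6.96, 6.65 and 6.52 at D14, 11.6, 13.4 and 7.11 at D28, with 6.37, 6.89 and 6.14 at D28WO. Every treated library lay above every Untreated one. CXCL12 rose at all 4 points in U251, by log2 fold changes of 1.82 ± 0.31, 1.73 ± 0.31, 2.29 ± 0.31 and 1.69 ± 0.31 (adjusted p = 0.000314, 0.0013, 4.38e-05 and 0.000934, limma, Benjamini-Hochberg). In U87 it measured 1.78, 1.17 and 1.12 TPM in Untreated, 0.901 and 3.26 at D3, 3.87 and 8.58 at D14, 1.31, 1.03 and 2.27 at D28, with 1.83, 1.67 and 3.42 at D28WO. It was called at none of the 4 points in U87, where only the D14 libraries stood clear of Untreated (log2 fold change 1.55 ± 0.42, adjusted p = 0.0569). That value passed without D3 replicate 2 (adjusted p = 0.0485) or D3 replicate 3 (adjusted p = 0.0491), with log2 fold changes that stayed at 1.55 since neither library is in the comparison.

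**Figure D4:**
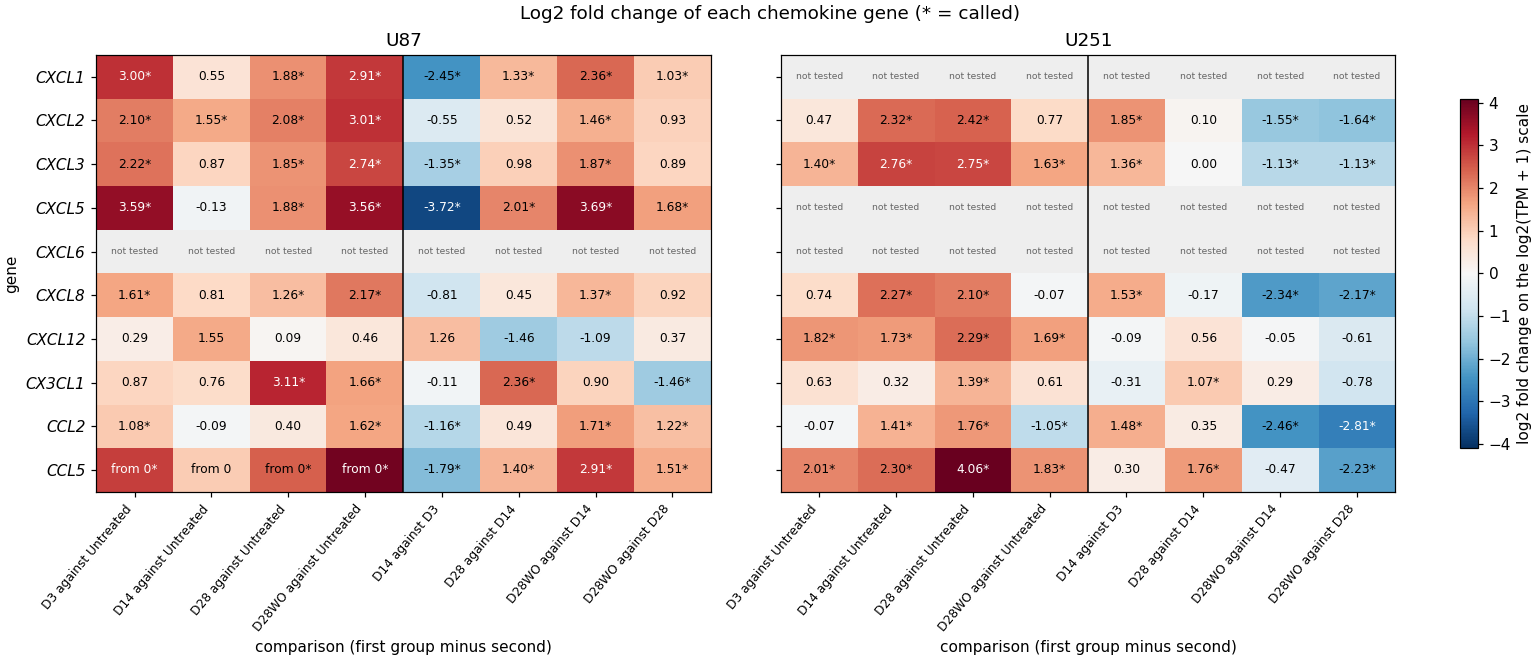
Log2 fold change, on the log2(TPM + 1) scale, of each chemokine gene in 8 comparisons of U87 (left) and U251 (right), with red for higher in the first group and blue for lower, stars for calls and grey for genes under the filter. CCL5 in U87 is marked "from 0" against Untreated, where it was listed at 0. In the 2 comparisons of D28WO with D14 and D28, at the right of each panel, most U87 cells are red and most U251 cells blue.

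The order of levels within a line is given as a description. In Untreated U87 CXCL8 (90.7 TPM) was followed by CXCL2 (40.9), CCL2 (25.4), CXCL3 (24.5), CXCL1 (4.45), CXCL5 (2.20), CXCL12 (1.35) and CX3CL1 (0.163), with CCL5 and CXCL6 listed at 0, and only CCL2 and CXCL3 overlapped as neighbours above 0. In Untreated U251 CX3CL1 (55.1 TPM) came first, followed by CXCL8 (31.6), CXCL2 (22.5), CCL2 (21.0), CXCL3 (11.3), CXCL12 (1.49) and CCL5 (0.459), where CXCL2 overlapped CCL2 and CXCL12 overlapped CCL5. CX3CL1 was first in U251 at D3 and D28WO as well, CXCL8 took the first place at D14 (156 TPM against 68.8 for CX3CL1), and at D28 CX3CL1 (145 TPM), CXCL8 (139) and CXCL2 (125) overlapped in turn. CX3CL1 made up 38.4% ± 2.11 of the summed level in Untreated U251, 36.5% ± 2.06 at D3, 13.9% ± 0.906 at D14, 24.3% ± 0.842 at D28, with 39.9% ± 0.447 at D28WO. In U87 the share of CXCL8 was 47.8% ± 4.41 in Untreated and 37.9% ± 1.27 at D28WO, and that of CXCL2 was 21.5% ± 3.12 and 30.6% ± 0.856 (SD over libraries). CX3CL1 never passed 1.96% in a U87 library.

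Between D3 and D14 the calls were lower within U87 and higher within U251. In U87, 5 members were called lower at D14 than at D3, where 2.05% of all genes tested were called lower, and none was called higher (0.576%). CXCL5 fell by 3.72 on the log2 scale (SE 0.23, adjusted p = 2.24e-06, limma, Benjamini-Hochberg), CXCL1 by 2.45 (SE 0.21, adjusted p = 2.71e-05), CCL5 by 1.79 (adjusted p = 0.0216), CXCL3 by 1.35 (adjusted p = 0.00366) and CCL2 by 1.16 (adjusted p = 0.0207). With 2 libraries in each group, the last 3 depended on single libraries. Without D3 replicate 2 the count was 2, without D14 replicate 2 or D14 replicate 3 it was 3, and CCL2 was also lost without D3 replicate 3 (adjusted p = 0.0538). With these groups alone in the fit, or without the D28WO group, the counts were 2 and 3. In U251, 4 members were called higher at D14 than at D3, where 3.19% of all genes were called higher, namely CXCL2 (log2 fold change 1.85), CXCL8 (1.53), CCL2 (1.48) and CXCL3 (1.36), with adjusted p = 2.37e-08, 4.44e-07, 4.53e-05 and 4.34e-07. None was called lower (3.29% of all genes), and CX3CL1 had a log2 fold change of -0.31 (adjusted p = 0.0051).

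Between the libraries labelled D14 and D28, 4 members were called higher in U87 (1.78% of all genes) and 2 in U251 (4.23%), and none was called lower (0.332% and 1.6% of all genes). In U87 these were CX3CL1 (log2 fold change 2.36 ± 0.29, adjusted p = 0.000442, limma, Benjamini-Hochberg), CXCL5 (2.01 ± 0.21, adjusted p = 0.000124), CXCL1 (1.33 ± 0.19, adjusted p = 0.00158) and CCL5 (1.40 ± 0.35, adjusted p = 0.0498). CCL5 was at the threshold and was lost when any of Untreated replicates 1 to 3, D14 replicates 2 and 3, D28 replicates 1 and 2 or D28WO replicates 1 to 3 was left out (adjusted p from 0.0586 to 0.289). It was also lost without the filter on low values (adjusted p = 0.101), with only the compared groups (0.15) and in the fit without the D28WO group (0.0987). CXCL3, with a log2 fold change of 0.98, was called without D28 replicate 1 (1.04). In U251 the calls were CCL5 (1.76 ± 0.32, adjusted p = 0.00138) and CX3CL1 (1.07 ± 0.07, adjusted p = 1.99e-07), whereas CXCL2, CXCL3 and CXCL8 overlapped between D14 and D28, with log2 fold changes of 0.10, 0.00 and -0.17.

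The libraries labelled D28WO were compared with those labelled D28 and D14. In U87, 4 members were higher at D28WO than at D28 (3.11% of all genes called higher) and 1 was lower (2.42% called lower). CXCL5 rose by 1.68 ± 0.19 on the log2 scale (adjusted p = 0.000208, limma, Benjamini-Hochberg), CCL5 by 1.51 ± 0.32 (adjusted p = 0.00716), CCL2 by 1.22 ± 0.20 (adjusted p = 0.00202) and CXCL1 by 1.03 ± 0.17 (adjusted p = 0.00191), and CX3CL1 fell by 1.46 (SE 0.26, adjusted p = 0.00271). CCL2 was under the limit on the fold without D28 replicate 2 (0.96), and CXCL1 without D28WO replicate 3 (0.96) or with size factors (0.98). CXCL2, CXCL3 and CXCL8 had log2 fold changes of 0.93, 0.89 and 0.92, each with an adjusted p under the threshold (0.00141, 0.00557 and 0.000199) and no overlap of libraries, and CXCL2 was called higher with quantile normalization (1.02, adjusted p = 0.000705). Against D14, 7 members were higher at D28WO (6.3% of all genes), all but CXCL12 and CX3CL1, and none was called lower (3.39%), led by CXCL5 (3.69 ± 0.21, adjusted p = 6.65e-07). CXCL12 had a log2 fold change of -1.09 (adjusted p = 0.0807, limma, Benjamini-Hochberg) and was called lower with quantile normalization (-1.26, adjusted p = 0.0479) or array weights (-1.10, adjusted p = 0.0489). This value rests on 2 D14 libraries that differ, and it was -0.60 without D14 replicate 3 and -1.57 without D14 replicate 2.

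In U251, 5 members were called lower at D28WO than at D28 (8.14% of all genes called lower) and 4 lower than at D14 (5.38%), and none was called higher (1.12% and 1.78%). CCL2 fell by 2.81 on the log2 scale from D28 (SE 0.18, adjusted p = 1.65e-07, limma, Benjamini-Hochberg), CCL5 by 2.23 (SE 0.32, adjusted p = 0.000164), CXCL8 by 2.17 (SE 0.11, adjusted p = 2.61e-08), CXCL2 by 1.64 (SE 0.10, adjusted p = 9.16e-08) and CXCL3 by 1.13 (SE 0.10, adjusted p = 2.05e-06). CX3CL1 and CXCL12 had log2 fold changes of -0.78 and -0.61, and the D28WO libraries of both lay under those of D28. Against D14 the calls were CCL2, CXCL8, CXCL2 and CXCL3, with falls of 2.46, 2.34, 1.55 and 1.13. Of the 12 IFN-γ check genes, 0 were called in either direction between D28 and D28WO in either line. Their median log2 fold changes there were 0.10 in U87 and 0.11 in U251. All 3 CXCR3 ligands were called lower in U251 and 0 in U87.

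**Figure D5:**
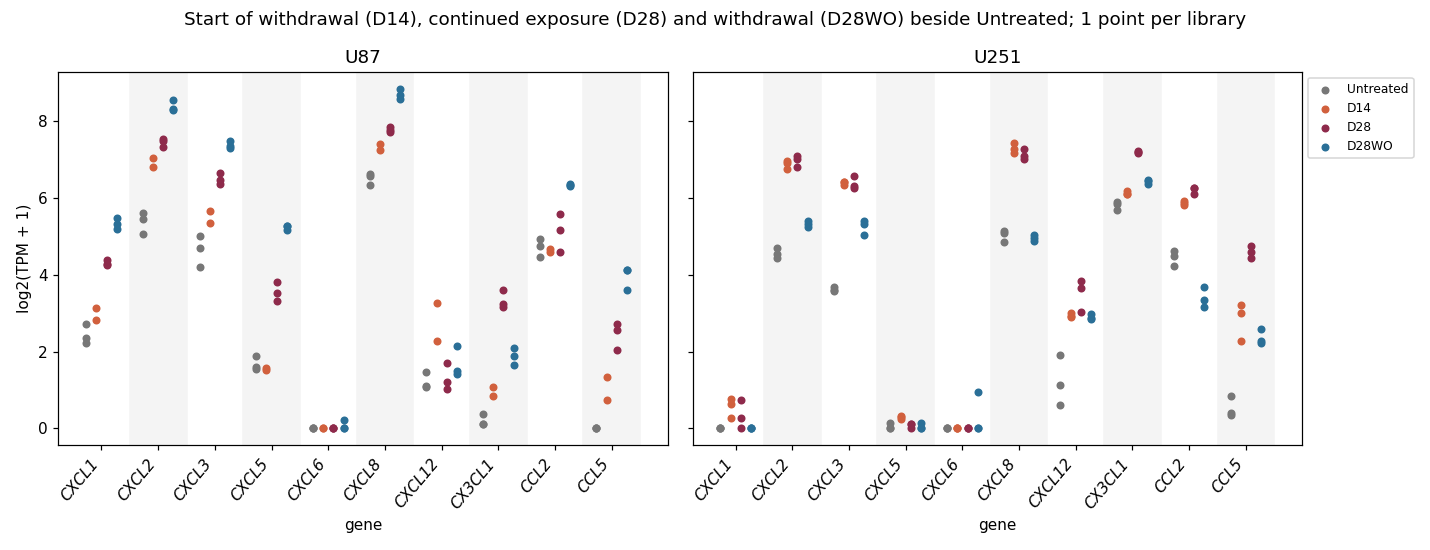
Level, as log2(TPM + 1), of each chemokine gene in every Untreated, D14, D28 and D28WO library of U87 (left) and U251 (right), with 1 point per library. In U87 the D28WO points of CXCL1, CXCL2, CXCL3, CXCL5, CXCL8 and CCL2 lie above the D28 points, and in U251 the D28WO points of CXCL2, CXCL3, CXCL8 and CCL2 lie under the D14 and D28 points, those of CXCL8 at the level of Untreated and those of CCL2 under it.

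The receptors of the neutrophil chemokines were at or near 0. CXCR1 was listed at 0 in every library of both lines, and the group means of CXCR2 were at most 0.0793 TPM in U87 and 0.164 TPM in U251. Of 12 receptors and decoys, 6 passed the filter in each line. CCR1, a receptor of CCL5, was at 24.9 TPM in Untreated U87 and was not called there, and in U251 it rose from 0.163 TPM to 4.76 at D3, 2.05 at D14, 16.7 at D28, with 3.01 at D28WO (log2 fold changes 2.31, 1.39, 3.93 and 1.76). ACKR3, the scavenger of CXCL12, rose in U87 at D28 (log2 fold change 1.81) and in U251 at D3 (1.29). ACKR1, a decoy of many chemokines, was listed at 0 in Untreated of both lines and averaged 2.71 TPM in U87 and 3.54 TPM in U251 at D28. It passed the filter only through that group, as the other libraries averaged 0.271 TPM in U87 and 0.407 TPM in U251, and CX3CR1 in U251 likewise passed only through D3 (0.492 TPM in the other libraries), so their calls are not read as results. The receptor genes called were 0, 0, 2 and 0 in U87 and 3, 1, 3 and 1 in U251 at D3, D14, D28 and D28WO, all of them higher, and without these genes they were 0, 0, 1 and 0 in U87 and 2, 1, 1 and 1 in U251. Over all genes tested, 5.85%, 1.89%, 6.77% and 12.8% were called higher in U87 and 9.72%, 4.72%, 11.9% and 4.07% in U251.

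Chemokines outside the 10 were described from 2 lists. All 3 CXCR3 ligands were listed at 0 in Untreated and D14 U87, and CXCL10 averaged 8.51 TPM at D3, 17.2 at D28, with 21.2 at D28WO. In U251 CXCL10 averaged 0.203 TPM in Untreated, 239 at D3, 36.1 at D14, 504 at D28, with 89.3 at D28WO, and CXCL11 0.503, 246, 24.7, 448 and 31.5 TPM. In U251 all 3 CXCR3 ligands were called lower at D14 than at D3 (falls of 2.67 for CXCL10 and 3.26 for CXCL11), while CXCL2, CXCL3, CXCL8 and CCL2 were called higher. Of the 31 other chemokines, 10 were tested in U87, with 4, 0, 5 and 5 called higher and 0, 0, 0 and 1 lower, and 9 in U251, with 2, 2, 4 and 1 higher and 1, 0, 0 and 2 lower. Over all genes, 5.85%, 1.89%, 6.77% and 12.8% were called higher in U87 and 9.72%, 4.72%, 11.9% and 4.07% in U251. The shares called lower were 0.384%, 0.209%, 0.611% and 2.12% in U87 and 4.55%, 1.04%, 3.35% and 3.38% in U251. In U87 CCL7 and CCL8, relatives of CCL2, were listed at 0 in Untreated and averaged 18.2 and 15.3 TPM at D28WO, and CCL20, the CCR6 ligand, averaged 4.70, 32.4, 4.15, 14.9 and 54.4 TPM across the 5 groups (log2 fold change 3.32 at D28WO). In U251 CCL8 was listed at 0 in Untreated and averaged 48.9 TPM at D28, with 0.131 TPM at D28WO. CCL25, a CCR9 ligand, averaged 0.101 TPM in Untreated U251, 3.43 at D3, 0.255 at D14, 3.87 at D28, with 4.63 at D28WO, and CCL20 was listed at 0 in Untreated U251 and was called only at D14 (3.05 TPM). CXCL9 in U87 passed the filter only through D28WO (0.310 TPM in the other libraries) and CCL3 in U251 only through D28 (0.101 TPM), and without CCL3 the 4 calls in U251 at D28 were 3.

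Genes of the NF-κB pathway were counted beside the members, since 5 of the 6 neutrophil chemokine windows held the κB motif and that of CXCL8 the shorter 9-letter string. Of 18 NF-κB responsive genes, all tested, 9 were called higher in U87 at D3, 0 at D14, 8 at D28, with 11 at D28WO, with none lower and medians of 1.05, 0.09, 0.62 and 1.18 on the log2 scale. In the same U87 comparisons 5.85%, 1.89%, 6.77% and 12.8% of all genes tested were called higher. IL6 averaged 53.9 TPM in Untreated U87, 213 at D3, 62.8 at D14, 167 at D28, with 391 at D28WO, and NFKBIZ, a nuclear cofactor of NF-κB, 36.1, 134, 59.7, 127 and 214 TPM, and the group means of both had the same order as those of CXCL8. A link of these genes to CXCL8 was not tested. VCAM1 in U87 rose at D3, D28 and D28WO (log2 fold changes 1.10, 1.49 and 2.67). In U251, 3, 3, 6 and 3 of the 18 were called higher and 1, 0, 1 and 1 lower. Over all genes 9.72%, 4.72%, 11.9% and 4.07% were called higher there and 4.55%, 1.04%, 3.35% and 3.38% lower. The U251 medians of the 18 were 0.03, 0.25, 0.56 and 0.09, beside 0.13, 0.10, 0.16 and 0.02 for all genes. ICAM1, an adhesion molecule that IFN-γ also induces, averaged 6.74, 154, 34.2, 184 and 113 TPM in U251, LIF fell at D3, D28 and D28WO (by 2.22, 1.53 and 1.52), and IER3 rose at D14 and D28 (1.80 and 1.07). Of 9 NF-κB subunits and kinases, RELB was called in U87 at D3 and D28WO (1.04 and 1.45) and in U251 at D14 and D28 (1.15 and 1.09), and NFKB2 in U87 at D28WO (1.08).

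Among 16 cytokines and receptors upstream of NF-κB, 5, 1, 5 and 8 of 16 tested were called higher in U87 and 2, 2, 4 and 2 of 13 tested in U251, with none lower. Over all genes, 5.85%, 1.89%, 6.77% and 12.8% were called higher in U87 and 9.72%, 4.72%, 11.9% and 4.07% in U251. IL1A averaged 13.6 TPM in Untreated U87, 36.5 at D3, 14.3 at D14, 23.6 at D28, with 103 at D28WO, and 1.48, 4.51, 6.25, 4.83 and 2.06 TPM in U251. IL1A thus had its highest mean at D28WO in U87 and at D14 in U251, and its part in the chemokine levels was not tested. IL1RN, the antagonist of the IL-1 receptor, rose in U87 at all 4 points (log2 fold changes 2.84, 1.34, 2.39 and 1.82). TLR3, a sensor of double-stranded RNA, rose at D3, D28 and D28WO in U87 (2.15, 2.54 and 2.18) and at all 4 points in U251 (2.59, 1.44, 2.66 and 2.37), and TNFRSF1B rose in U251 at D28 and D28WO (1.38 and 1.53).

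Other lists were mixed. Of 10 C/EBP and AP-1 factors, 3, 3, 2 and 2 were called higher in U87 and 0, 0, 2 and 1 in U251, with 4 lower in U251 at D3 (4.55% of all genes). Over all genes, 5.85%, 1.89%, 6.77% and 12.8% were called higher in U87 and 9.72%, 4.72%, 11.9% and 4.07% in U251. Counts of 1 or 2 in these lists are not read as results. ATF3 rose in U87 at all 4 points (2.06, 1.48, 1.91 and 2.41), FOSB at D3, D14 and D28 (1.39, 2.55 and 1.85) and CEBPD at D3 and D28WO (1.18 and 1.76). In U251 FOSB and FOS fell at D3 (by 3.27 and 2.21) and CEBPB rose at D28 and D28WO (1.04 and 1.18). Of 8 mRNA decay factors, ZC3H12A, a ribonuclease that degrades inflammatory transcripts, rose in U87 at D3, D28 and D28WO (2.09, 1.71 and 2.12), and ZFP36 fell in U251 at D3 (by 1.01). Of 10 proteases and decoys that act on these ligands, 3, 0, 2 and 1 of 9 tested were called higher in U87 and 1, 1, 2 and 0 of 8 tested in U251. A call of lower was made for 1 of them, in U87 at D28WO. MMP9 rose in U87 at D3 and D28 (1.24 and 1.48), DPP4 in U87 at D3 and D28 (1.22 and 1.24) and in U251 at D28 (1.30), MMP1 in U251 at D3, D14 and D28 (1.13, 2.70 and 3.92), and SDC1 fell in U87 at D28WO (by 1.28).

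Markers of the cell type were read in the same groups. The 10 glioma line markers summed to 2271 to 3031 TPM in U87 and 2203 to 4480 TPM in U251, led by VIM and CD44. In U251 GFAP fell at D3, D28 and D28WO (by 1.88, 2.37 and 1.13), as did S100B (by 2.10, 1.51 and 1.80) and, at D3 and D28WO, NES (by 1.38 and 1.21), and in U87 OLIG2 rose at D28WO (1.78), GFAP at D28 and D28WO (1.38 and 1.45) and S100B at D28 (1.06). The 17 leukocyte and endothelial markers summed to 17.0 to 67.2 TPM in U87 and 11.3 to 44.5 TPM in U251. In U87 most of this was CSF1R, at 55.2 TPM in Untreated and 16.9 TPM at D28WO (a fall of 1.69), and in Untreated U251 most of it was CDH5, at 27.6 TPM in Untreated and 0.565 TPM at D3 (a fall of 4.19). In U87 NKG7, a gene of cytotoxic lymphocytes, was listed at 0 in Untreated and was called higher at D3 and D14, at 1.14 and 1.64 TPM, and in U251 CD14 rose at all 4 points (1.85, 1.07, 1.48 and 1.12). The part of these changes in the chemokine levels was not tested. PTPRC, the defining marker of leukocytes, had group means of at most 0.828 TPM in U87 and 0.721 TPM in U251.

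Genes with the most similar pattern were found by Pearson's r of log2(TPM + 1) with all genes tested, over the 13 U87 or the 15 U251 libraries. These values are descriptions without a test, since libraries of a group share their treatment. In U87 CXCL1 ran closest with CSF3, the neutrophil growth factor G-CSF (r = 0.985), ETS2 and IRAK2, and CXCL5 with USF1 (r = 0.977), CSF3 and IRAK2. CXCL2 ran with SAT1 (r = 0.992), SLC27A1 and an unnamed gene, CXCL3 with PLPP3 (r = 0.991), CIMAP1B and CASP10, and CXCL8 with GTPBP2 (r = 0.986), BRSK1 and RPLP0P2. CCL2 ran with NFKBIB (r = 0.967) and DHRS3, CCL5 with SRGAP2 (r = 0.991), LBX2-AS1 and HECA, and CX3CL1 with SP140 (r = 0.963), DDIT4L and SMIM10L2A. Among the members themselves, CXCL1 and CXCL5 reached r = 0.973 and CXCL2 and CXCL8 r = 0.978 in U87, whereas r of CXCL12 with the others ran from -0.219 to 0.101. In U251 CCL2 ran closest with CHST7 (r = 0.984), CPNE5 and RTN1, CXCL8 with MME (r = 0.969), NTRK2 and ADAMTS1, and CX3CL1 with PLA1A (r = 0.979), SRD5A3-AS1 and CCR1. CXCL2 ran with ST8SIA2 (r = 0.947), SCG2 and CXCL3, CXCL3 with ZNF697 (r = 0.972), an unnamed gene and H4C8, CCL5 with LRRN3 (r = 0.965), GTF2IRD1P1 and NRIR, and CXCL12 with an unnamed gene (r = 0.952), RPL29P19 and NKX6-1.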

How the data were processed

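RNA-seq libraries of U87 and U251 were analysed from the authors' deposited TPM values, 1 table per line. The submitters' processing notes name FastQC, Trim Galore, STAR, featureCounts, edgeR and GRCh38, and how TPM was computed from the counts is not given in the sources used here. TPM divides by gene length and rescales each library to the same total, so a large rise in some genes lowers the others. Of the 30 libraries, 13 of U87 and 15 of U251 were used, and 2 U87 columns that carry the same name were left out, which left D3 and D14 of U87 with replicates 2 and 3.

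The log2(TPM + 1) scale was used throughout, and a gene entered the test of a line where its mean there reached 0.5 TPM (22918 genes in U87 and 23667 in U251). Tests used limma 3.58.1 in R 4.3.3 (trended variance) with all 5 groups of a line in 1 fit, and p-values were adjusted by Benjamini and Hochberg over all genes of a comparison. Calls required an adjusted p below 0.05 together with a log2 fold change beyond 1 in either direction. Fold changes printed as "-fold" are ratios of mean TPM, and log2 fold changes are on the log2(TPM + 1) scale, which understates changes of low genes. No p for a list was computed. The fit was also run on simulated data to check the code, and nothing is read from that run here.

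The 10 members and all gene lists were chosen with earlier results of these data known. For the lists other than the members, the text gives counts for some of them. Of each it names up to 3 tested genes with the largest log2 fold change among those called against Untreated, and it names the 3 genes with the highest r for each member called against Untreated. A gene that this rule names for CCL2 in U87 is not reported here. CXCR1, CXCR2, CCR1 in U87, CX3CR1 and CCL3 in U251, VIM, CD44 and PTPRC were named as well, after their values were seen. Alternatives were pseudocount, filter, scaling, groups in the fit, replicate block, array weights, the fold limit and each library left out, and fits without the D14 or the D28WO group, which were added after the data were seen. Gene positions are from GENCODE 44 and promoter windows from RefSeq GRCh38.p14. Python 3.11.15 was used for levels, correlations and motifs.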

Additional observations from a re-analysis of the deposited data

Results flagged for a closer look

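In 15 pairs of a gene and a comparison, the libraries of the groups compared did not overlap in either line, and the first group lay higher in 1 line and lower in the other. The difference between the lines was not tested, since their tables were normalised separately. Of the 7 members tested in both lines, 4 were such pairs between D3 and D14, 5 between D28 and D28WO, 4 between D14 and D28WO, 1 between D14 and D28 and 1 between Untreated and D28WO. Of all 20473 genes tested in both lines, 6.58%, 8.85%, 6.99%, 4.44% and 6.22% were such pairs in these comparisons. In the other 3 comparisons, D3, D14 and D28 against Untreated, the members gave 0 pairs, where all genes gave 6.77%, 6.41% and 6.46%. The members were chosen with earlier results known, so nothing is read from these counts. All values are log2 fold changes on the log2(TPM + 1) scale, U87 first. Between D3 and D14 the pairs were CXCL2 (-0.55, which was not called, and 1.85), CXCL3 (-1.35 and 1.36), CXCL8 (-0.81, under the limit on the fold, and 1.53) and CCL2 (-1.16 and 1.48). Between D28 and D28WO they were CXCL2 (0.93 and -1.64), CXCL3 (0.89 and -1.13), CXCL8 (0.92 and -2.17), CCL2 (1.22 and -2.81) and CCL5 (1.51 and -2.23), of which CXCL2, CXCL3 and CXCL8 in U87 were under the limit on the fold. Between D14 and D28WO they were CXCL2 (1.46 and -1.55), CXCL3 (1.87 and -1.13), CXCL8 (1.37 and -2.34) and CCL2 (1.71 and -2.46). For CXCL12 between D14 and D28 the values were -1.46 and 0.56, neither of which was called, and for CCL2 between Untreated and D28WO they were 1.62 and -1.05. Comparisons that share a group share its libraries, so the pairs are not separate observations. The U87 libraries labelled D14 carried 0 calls among the 12 IFN-γ check genes, and all U87 values that involve D14 rest on 2 libraries in that group.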

How the results depend on the processing

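Of 1663 recomputed log2 fold changes of members in U87, 1597 kept their direction and their side of the thresholds, and of 1407 in U251, 1384 did. The number of members called moved by over 1.5 times in few settings. In U87 at D14 against Untreated the count of 1 became 3 with a pseudocount of 0.1 TPM, 2 with the replicate block and 3 with the adjusted p alone, and ran from 1 to 2 when single libraries were left out. In U87 at D14 against D3 the count of 5 became 2 with only the compared groups and 3 in the fit without the D28WO group, chosen after seeing the data, and ran from 2 to 5 with libraries left out. The adjusted p alone gave 8 in place of 5 in U87 at D28WO against D28, and 6 in place of 3 in U251 at D3 against Untreated.

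Directions turned for values that were not called. CXCL12 in U87 against Untreated turned at D3 (0.29 to -0.22, quantile normalization), at D28 (0.09 to -0.39 with quantile normalization, -0.020 with size factors and -0.032 with array weights) and at D28WO (0.46 to -0.086, quantile normalization). CX3CL1 in U87 at D14 against D3 turned from -0.11 to 0.029 (quantile normalization). In U251 CXCL12 turned at D14 against D3 (-0.09 to 0.011, array weights) and at D28WO against D14 (-0.05 to 0.13 with quantile normalization and 0.0058 with size factors), and CXCL3 at D28 against D14 (-0.0040 to 0.016, quantile normalization). With single libraries left out, CXCL12 in U87 at D3 ran from -0.30 to 0.87, CXCL12 in U87 at D28 from -0.11 to 0.24, CCL2 in U87 at D14 against Untreated from -0.21 to 0.015, CX3CL1 in U87 at D14 against D3 from -0.43 to 0.20, CCL2 in U251 at D3 against Untreated from -0.26 to 0.14, CXCL12 in U251 at D14 against D3 from -0.26 to 0.13 and CXCL3 in U251 at D28 against D14 from -0.095 to 0.057. Without a change of sign, CX3CL1 in U87 at D3 against Untreated ran from 0.56 to 1.18, and CXCL12 in U87 from 0.68 to 1.85 at D14 against D3, from -1.95 to -0.97 at D28 against D14 and from 0.23 to 0.60 at D28WO against Untreated, all of them values that were not called. CXCL2 in U87 at D14 against D3, which was not called either, ran from -0.77 to -0.32.

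The count over all genes in U87 moved more. At D3 against Untreated, 1428 became 822 with quantile normalization, 745 with only the compared groups and 682 without D3 replicate 2. At D14 against Untreated, 481 became 269 without the filter, 213 with quantile normalization, 306 with size factors, 31 with only the compared groups, 226 without the D28WO group and 92 (without D14 replicate 2) to 511 with libraries left out. At D28 against Untreated, 1692 became 1052 with quantile normalization. At D14 against D3, 602 became 192 with only the compared groups and 344 to 612 with libraries left out. With the adjusted p alone the counts were 3823, 1182, 5445 and 9626 in U87 and 9677, 5008, 9617 and 6555 in U251 for the 4 comparisons with Untreated in order of time, and 1098, 930, 4202 and 5929 in U87 and 6026, 4925, 6889 and 6255 in U251 at D14 against D3, D28 against D14, D28WO against D28 and D28WO against D14. The cause of these changes was not tested. Same-numbered libraries did not deviate together from their group means (correlations from -0.058 to 0.048, none over 0.1). The numbers thus gave no sign of pairing, which does not show that no cultures were paired. In the study's methods the cultures were divided at D14, so D28 and D28WO may share parent cultures. The replicate block gave the count of 2 above, called CXCL12 in U87 at D14 (1.54, adjusted p = 0.0406, limma, Benjamini-Hochberg) and as lower at D28WO against D14 (-1.08, adjusted p = 0.047), and lost CCL5 in U87 at D28 against D14 (1.32, adjusted p = 0.0961).

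The fit without the D14 group changed no member call. TPM keeps no depth, so the precision of low genes is unknown, and U87 at D3 and D14 rests on 2 libraries each.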
